A study of Mus musculus with 12 samples.

Results

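The miR-378 family of the mouse was followed in 12 livers injured with carbon tetrachloride. Its members were taken by name from the deposited count table, namely mmu-miR-378a-3p and mmu-miR-378a-5p, the arms of 1 hairpin, and the related mmu-miR-378b, mmu-miR-378c and mmu-miR-378d (below without the mouse prefix). These are 5 of 1929 miRNAs in the table. Small RNA of C57BL/6 liver was sequenced in 2 groups of 6 libraries. All mice received CCl4, a liver toxin that produces fibrosis, by intraperitoneal injection. The water group was given double distilled water into the stomach every day, and the PZH group received Pien Tze Huang (PZH), a multi-ingredient remedy of Chinese medicine, the same way. Both groups therefore carry the injury, and uninjured mice are not analysed here. Age, sex and dose are not stated in the labels. The titles number the libraries within a group without stating that each came from a separate mouse, so the p-values measure the spread between these samples.

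The hairpin of miR-378a lies in intron 1 of Ppargc1b, on the same strand. Ppargc1b encodes PGC-1β, a transcriptional coactivator that drives mitochondrial biogenesis and oxidative metabolism. Both arms are known to act on energy use, the 3p arm by repressing carnitine O-acetyltransferase and the 5p arm by repressing the Mediator subunit MED13. In liver, miR-378a-3p is known as a hepatocyte-expressed miRNA that restrains activation of stellate cells, the cells that lay down scar matrix. The host messenger RNA was not measured in these small RNA libraries.

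The other 3 hairpins have no host gene on their own strand in the GRCm38 annotation. That of miR-378b, at chr11:88352773-88352864 on the plus strand, lies opposite an intron of Msi2. The hairpin of miR-378c, at chr14:46954830-46954928 on the minus strand, lies opposite an intron of Samd4, and that of miR-378d, at chr10:126710282-126710391 on the minus strand, is intergenic. Mature sequences of 3 members were matched by name in RefSeq (build GRCm38.p6), and they are shown because their similarity bears on how reads could be assigned. miR-378a-3p and miR-378a-5p were not matched. The sequences read 5′ to 3′, with the seed, bases 2 to 8 that pair with target messages, in capitals.
miR-378b: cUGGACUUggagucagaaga
miR-378c: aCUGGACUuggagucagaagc
miR-378d: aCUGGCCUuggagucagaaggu
Each of these seeds differs from the other 2. Counted from the 5′ end of miR-378c, miR-378d carries A6C, inside the seed, and C21G, with 1 further base at its 3′ end. Aligned to miR-378c, miR-378b lacks the first base, which shifts its seed, and carries C21A. The mature RNAs also come from different sides of their hairpins, shown for miR-378b and miR-378c with the mature RNA in capitals.
Hairpin of miR-378b: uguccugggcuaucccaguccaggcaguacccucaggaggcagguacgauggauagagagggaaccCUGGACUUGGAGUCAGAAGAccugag
Hairpin of miR-378c: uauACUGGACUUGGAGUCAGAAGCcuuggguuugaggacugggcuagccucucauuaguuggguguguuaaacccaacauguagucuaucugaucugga
The mature miR-378b begins at base 67 of 92, on the 3′ side, while miR-378c begins at base 4 of 99 and miR-378d at base 16 of 110, both on the 5′ side. The labels do not say how reads that match several of these names were assigned, so the counts of miR-378a-3p, miR-378b, miR-378c and miR-378d may hold reads of one another.

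Total counts ranged from 4961913 to 20211784 in the water group and from 6065480 to 10436478 in the PZH group. Water replicate 2, the deepest library, stood apart from the other water libraries in several miRNAs. It held 71.6 CPM (the count scaled to library size, with TMM factors) of the muscle miRNA miR-1a-3p against 19.9 in the next water library, and 621 CPM of the biliary miRNA miR-200b-3p against 287. Where a call or a direction below changed without it, the value without it is also given.

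The 3 abundant members of the family were lower in the livers of PZH-treated mice. Of the 5 members, 3 fell with PZH and none rose. Those that fell were miR-378c, by 28.0%, miR-378a-3p, by 20.6%, and miR-378a-5p, by 19.9%. The values of miR-378b and miR-378d were 28.4% and 21.6% lower, with intervals that include no change. Counts were compared with the quasi-likelihood test of edgeR, with calls at a Benjamini-Hochberg adjusted p under 0.05 over all 607 miRNAs that passed a filter on low counts. All 5 members passed it. Over those 607 miRNAs 21.3% were called, 11.4% as lower and 9.88% as higher (69 lower and 60 higher, or 46 lower and 75 higher with upper quartile scaling). The median log2 fold change of the 5 members was -0.35, against -0.03 over all tested miRNAs, and all 5 values lay below 0, as did 54.9% of all. The members share sequence and libraries and are not replicates of the comparison. In whole liver, fewer cells of a type and less RNA per cell cannot be told apart.

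**Figure D1:**
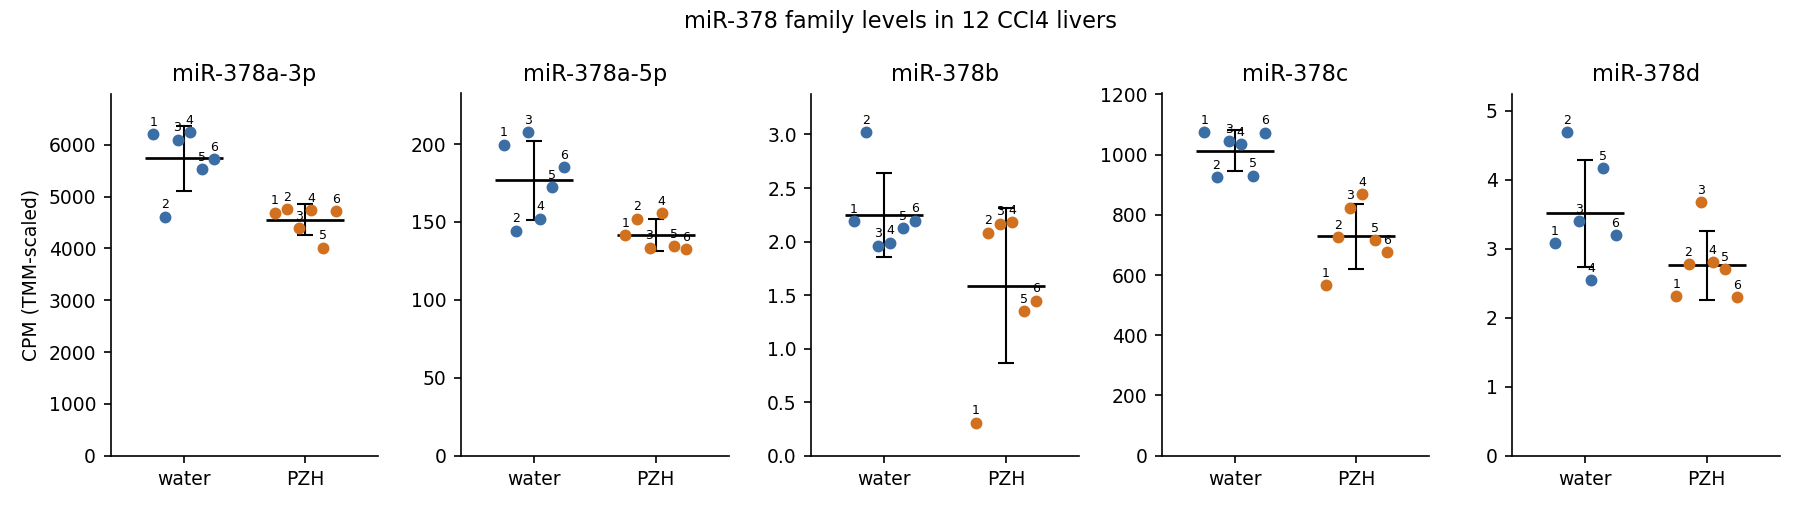
Level of each miR-378 member in CPM (linear axes from 0) in the 6 water and 6 PZH libraries; each point is a library marked with its replicate number, the line is the mean and the bar is 1 SD. The groups do not overlap for miR-378c, water replicate 2 is the low water point of miR-378a-3p, and PZH replicate 1 is the low point of miR-378b.

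The dominant member was miR-378a-3p, whose hairpin occupies chromosome 18 from 61397835 to 61397900 on the minus strand (GRCm38). Its counts ranged from 28671 to 90774, and it ranked between 30 and 40 in abundance among the miRNAs of each library. In the water group it stood at a lowest of 4615, a median of 5912 and a highest of 6241 CPM. In the PZH group the lowest, median and highest were 4015, 4709 and 4756 CPM. Water replicate 2 held the lowest water value, and the other 5 water libraries each lay above every PZH library. The means were 5736 ± 619 and 4553 ± 297 CPM (SD, n = 6; edgeR adjusted p = 0.00755, log2 fold change -0.33, SE 0.08, 95% interval -0.50 to -0.16). Without water replicate 2 the log2 fold change was -0.39 (edgeR adjusted p = 0.00101). The call ended with upper quartile scaling (log2 fold change -0.26, edgeR adjusted p = 0.0555) and without the filter on low counts (-0.30, edgeR adjusted p = 0.0519), and it held in the other 21 of 23 alternatives.

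The partner arm, miR-378a-5p, was far scarcer. In the water group its level ran from 145 CPM over a median of 179 to 208 CPM, and in the PZH group from 133 over 138 to 156 CPM. The groups overlapped, with 4 PZH libraries below every water library and 4 water libraries above every PZH library. The means were 177 ± 25.3 and 142 ± 10.1 CPM (SD, n = 6; edgeR adjusted p = 0.0403, log2 fold change -0.32, SE 0.10, 95% interval -0.54 to -0.10). This call was near the threshold. It ended in 16 of 23 alternatives (edgeR or limma adjusted p between 0.0513 and 0.194 where it ended, and edgeR, DESeq2 or limma adjusted p down to 0.0135 where it held). Among the 16 was the omission of any library other than water replicate 2, water replicate 4 or PZH replicate 4.

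The related miR-378c had the lowest p of the family. Its counts ran from 3677 to 17768. Levels in the water group lay between 925 and 1074 CPM with a median of 1039, and in the PZH group between 566 and 869 CPM with a median of 721. Every PZH library was below every water library, which held for 4.94% of all tested miRNAs in this direction. The lowest value was in PZH replicate 1. The means were 1014 ± 68.4 and 730 ± 108 CPM (SD, n = 6; edgeR adjusted p = 0.00281, log2 fold change -0.47, SE 0.10, 95% interval -0.68 to -0.27). The call held in all 23 alternatives (log2 fold change between -0.54 and -0.39, adjusted p between 0.000205 and 0.0133).

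The 2 rare members had low counts, from 2 to 58 for miR-378b and from 15 to 90 for miR-378d. No cell of the deposited table holds a count of 1, so that detection stands for 2 or more counts. For miR-378b the counts of water replicates 1 to 6 were 32, 58, 15, 18, 24 and 11, and those of PZH replicates 1 to 6 were 2, 18, 23, 21, 12 and 12. Scaled to library size, 3 PZH libraries lay below every water library and the other 3 lay among them, while PZH replicate 1 was far below the rest. The means were 2.25 ± 0.391 and 1.59 ± 0.727 CPM (SD, n = 6; edgeR adjusted p = 0.35, log2 fold change -0.48, 95% interval -1.17 to 0.20). Without PZH replicate 1 the log2 fold change was -0.29.

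For miR-378d the counts were 45, 90, 26, 23, 47 and 16 with water and 15, 24, 39, 27, 24 and 19 with PZH. The groups overlapped, with the highest value in water replicate 2. The means were 3.51 ± 0.781 and 2.76 ± 0.503 CPM (SD, n = 6; edgeR adjusted p = 0.286, log2 fold change -0.35, 95% interval -0.81 to 0.10). The intervals of miR-378b and miR-378d include both no change and the change seen in miR-378a-3p, so neither was detectable as a difference at these counts. Neither was called in any of the 22 alternatives in which it was tested.

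**Figure D2:**
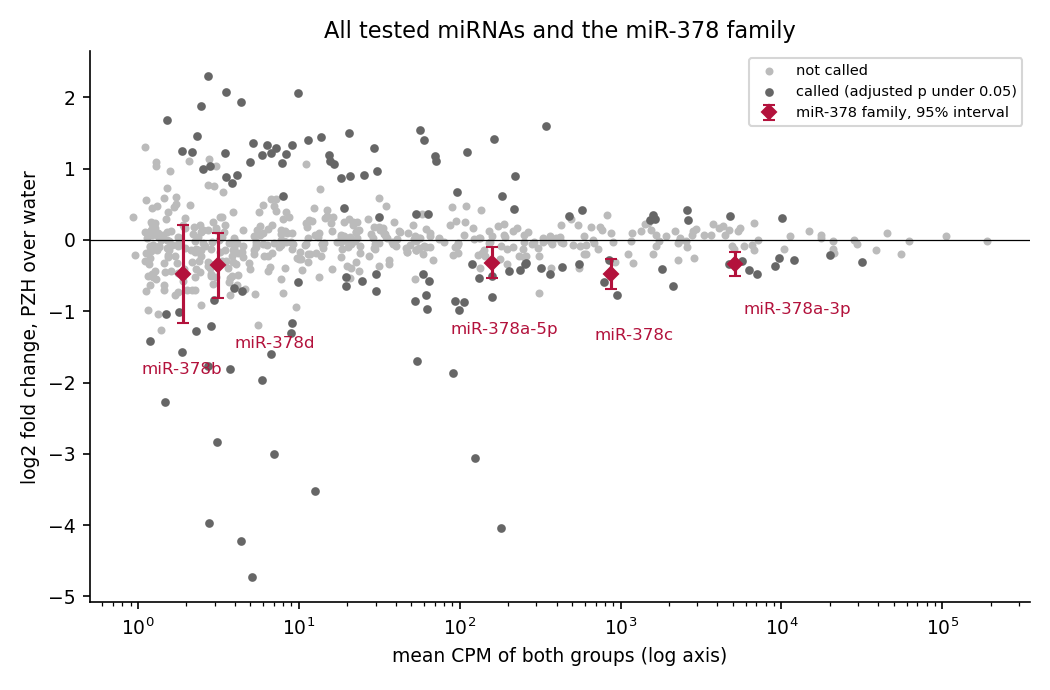
Log2 fold change of PZH over water against mean CPM (log axis) for the 607 tested miRNAs, with the 5 miR-378 members as diamonds with 95% intervals. All 5 diamonds lie below 0, and the intervals of the rare miR-378b and miR-378d cross 0.

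**Figure D3:**
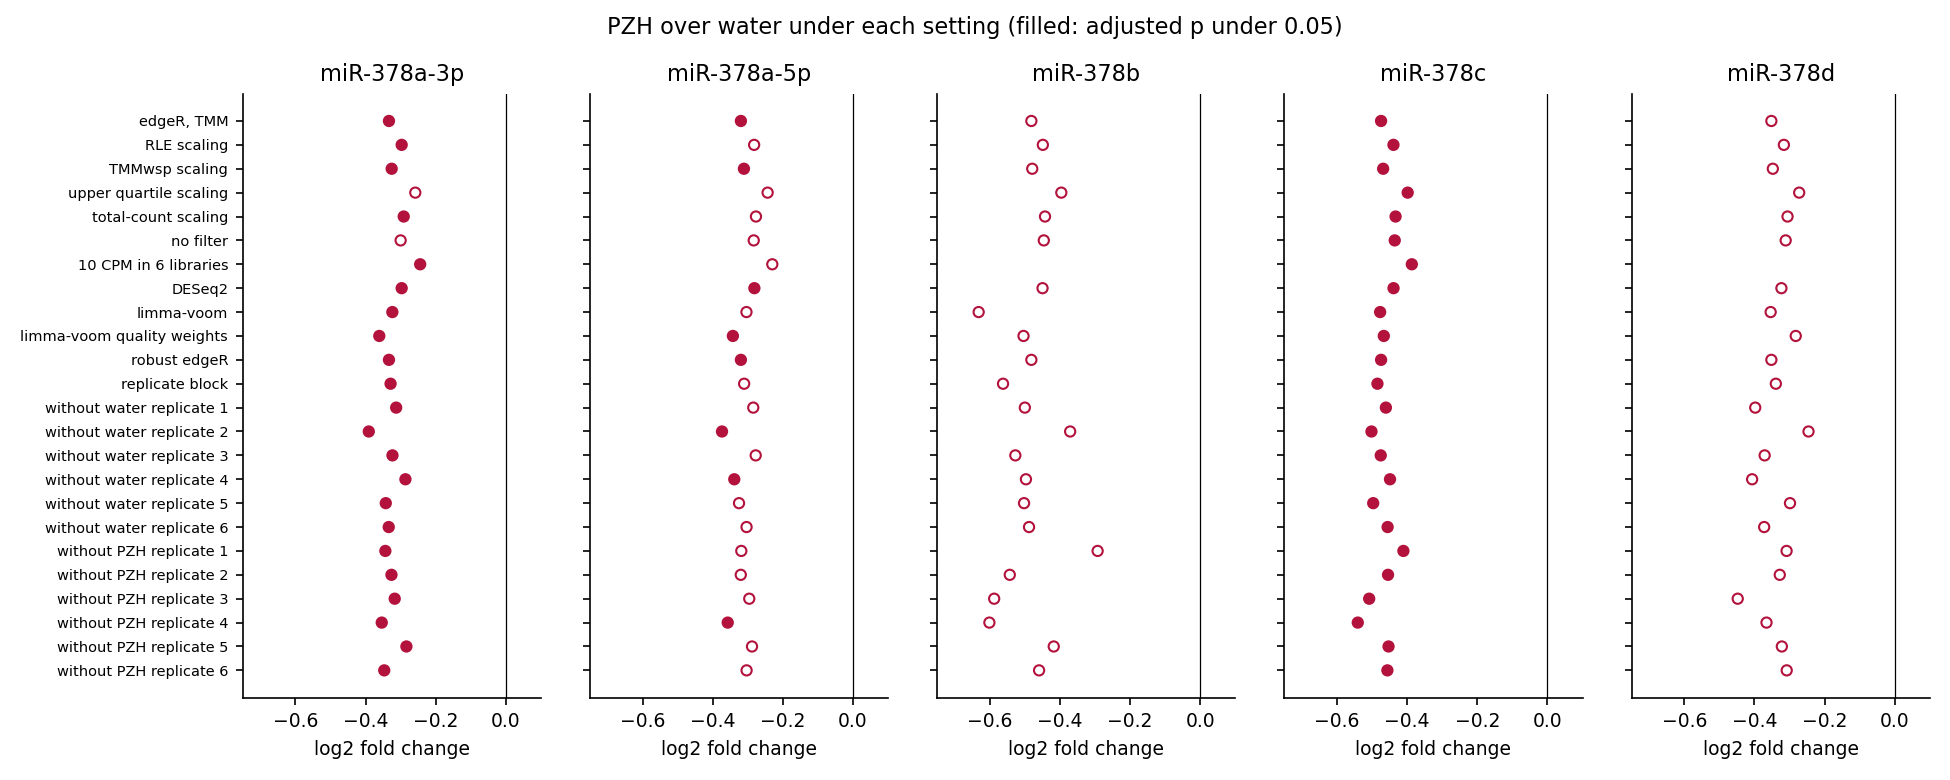
Log2 fold change of each member under the 24 settings tried (rows; edgeR with TMM scaling at the top), filled where the adjusted p was under 0.05. All points lie below 0; miR-378c is filled in every row, and miR-378a-5p in few.

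The summed level of the family consists mostly of miR-378a-3p, which held 81.1% to 86.9% of the family's counts in each library. In the water group the sum was 6932 ± 689 CPM and in the PZH group 5429 ± 314 CPM (SD, n = 6), with ranges of 5692 to 7489 and 4869 to 5769 CPM. The ranges met only through water replicate 2, which held 5692 CPM. In share of all counts these were 0.683% ± 0.0738 and 0.551% ± 0.026. The share of the family's counts held by miR-378a-3p was 82.7% ± 1.03 in the water group and 83.9% ± 1.98 in the PZH group (SD, n = 6). The share of miR-378c was 14.7% ± 0.927 and 13.5% ± 1.93, and that of miR-378a-5p was 2.55% ± 0.265 and 2.61% ± 0.14. Together miR-378b and miR-378d held a small remainder, 0.0332% and 0.0521% with water.

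The balance of the miR-378a arms asks whether both products of 1 hairpin moved together, and it does not depend on library scaling. Per 1000 counts of the 3p arm, the 5p arm had 32.2, 31.3, 34.0, 24.4, 31.2 and 32.4 counts in water replicates 1 to 6. In PZH replicates 1 to 6 it had 30.2, 31.99, 30.4, 32.8, 33.5 and 28.1 counts. Water replicate 4 was lowest, and the groups lay on top of each other. The log2 ratio of 5p to 3p was -5.02 ± 0.17 in the water group and -5.005 ± 0.0938 in the PZH group (SD, n = 6), a difference of 0.02 (95% interval -0.20 to 0.24, limma adjusted p = 0.931 over 137 hairpins with both arms counted, exact permutation p = 0.859). Of the 137 hairpins, 8.03% were called. The ratio varied less between libraries of a group than in most hairpins, with a pooled SD of 0.137 against a median of 0.292, and 9 hairpins had a smaller one. The spreads were not matched for counts. Hairpins were included from a mean of 20 counts in each arm, while miR-378a-5p, the scarcer arm here, had 921 to 2919. The level of the ratio was more strongly tilted to the 3p arm in 24 hairpins.

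The level of miR-378c relative to miR-378a-3p overlapped between the groups. Per 1000 counts of miR-378a-3p it had 173, 200, 171, 166, 168 and 187 counts in water replicates 1 to 6, and 121, 153, 187, 183, 178 and 143 in PZH replicates 1 to 6. The PZH group held the lowest values, in replicates 1, 6 and 2, and the other 3 PZH libraries lay within the water range. The means were 178 ± 13.5 and 161 ± 26.5 (SD, n = 6; difference of the log2 ratios -0.16, two-sided exact permutation p = 0.193). Over the 4 ratios of members to miR-378a-3p, which were chosen after the values were seen, the smallest adjusted p was 0.771.

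**Figure D4:**
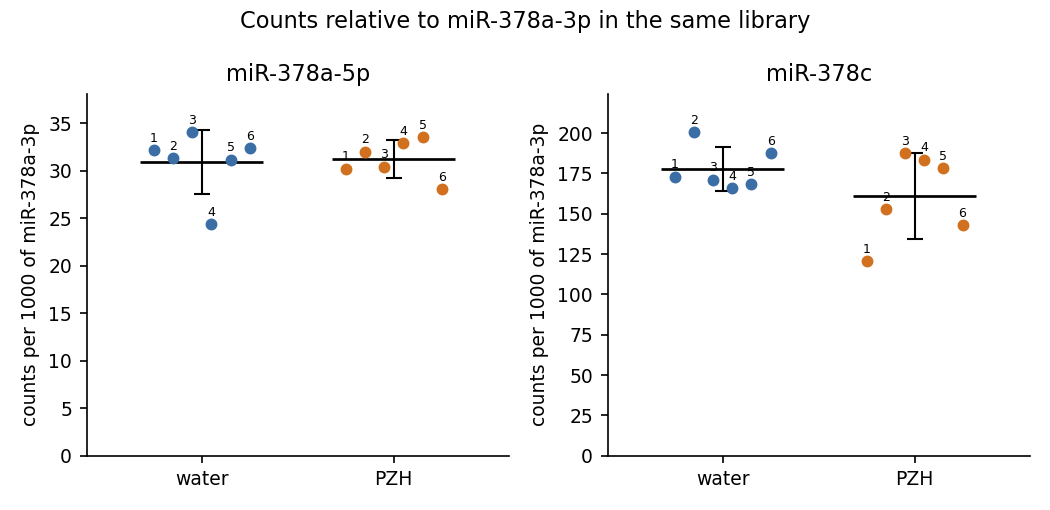
Counts of miR-378a-5p and of miR-378c per 1000 counts of miR-378a-3p in the same library (linear axes from 0), by group, with the mean and 1 SD; numbers are replicates. The arm ratio overlaps between groups, and PZH replicate 1 has the lowest ratio of miR-378c.

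Members were also compared library by library, on log2 CPM after each group's mean was subtracted (n = 12, 10 pairs). The arms of miR-378a correlated positively (Pearson r = 0.599, permutation p = 0.0374, adjusted p = 0.125; Spearman rho = 0.483, permutation p = 0.117, adjusted p = 0.267). It rested on water replicate 2 and PZH replicate 5, without which r was 0.239. Within groups r was 0.615 with water and 0.554 with PZH (n = 6 each). The strongest inverse relation was between miR-378a-3p and the rare miR-378d (r = -0.694, permutation p = 0.0118, adjusted p = 0.059; rho = -0.636, permutation p = 0.0302, adjusted p = 0.267), and without the same 2 libraries r was -0.777. Within groups it was -0.869 with water and -0.327 with PZH. The pair miR-378b and miR-378c had r = 0.739 (permutation p = 0.01, adjusted p = 0.059; rho = 0.462, permutation p = 0.133, adjusted p = 0.267), which fell to 0.145 without PZH replicates 1 and 4. Within groups its sign differed, with r = -0.588 in the water libraries and 0.90 in the PZH libraries. No pair passed the adjustment over 10 pairs. The permutations mixed the centred values of both groups, which can make these p-values too small. The p-values were not part of the plan, which held a description only.

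Of 171 other miRNAs averaging 100 CPM or more, those most like miR-378a-3p over the 12 libraries, by Pearson r after the same centring, were miR-22-3p (r = 0.85), the hepatocyte miRNA miR-802-5p (0.792), the red cell miRNA miR-451a (0.765), miR-335-5p (0.736), miR-365-3p (0.71) and miR-486b-5p (0.675). Least like it were miR-200b-3p (-0.928) and miR-200a-3p (-0.867), which mark biliary epithelium, and let-7i-5p (-0.746). The median over all 171 was 0.097. These likenesses turned on 1 library. Without water replicate 2, none of the 6 remained among the 6 most like, which were then led by miR-92a-3p (r = 0.795, n = 11) and miR-30c-5p (0.78), whereas miR-200b-3p (-0.809) and miR-200a-3p (-0.697) stayed among the 3 least like. Of the 6 first named, miR-802-5p fell with PZH, from 2582 ± 573 to 1644 ± 409 CPM (SD, n = 6; edgeR adjusted p = 0.0138, log2 fold change -0.65), and so did miR-335-5p, from 1207 ± 249 to 705 ± 154 CPM (SD, n = 6; edgeR adjusted p = 0.00306, log2 fold change -0.77). The other arm of the miR-335 hairpin, miR-335-3p, rose, from 185 ± 22.5 to 250 ± 29.8 CPM (SD, n = 6; edgeR adjusted p = 0.00755, log2 fold change 0.44). The other 4 of the 6 first named were not called with edgeR over all 12 libraries (log2 fold changes -0.19, -0.31, 0.07 and -0.13 for miR-22-3p, miR-451a, miR-365-3p and miR-486b-5p). Without water replicate 2, miR-22-3p (-0.26, edgeR adjusted p = 0.00883) and miR-451a (-0.40, edgeR adjusted p = 0.0281) were called as lower too. let-7i-5p (0.24) missed the threshold (edgeR adjusted p = 0.0913) and was called as higher in 8 of 23 alternatives, among them DESeq2 (0.28) and the omission of water replicate 2 (0.31, edgeR adjusted p = 0.0118).

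Other miRNAs known from energy metabolism did not move as a body, though more of them were called as lower than as higher. The 4 lists held 75 names, of which 67 were tested. Of these 12 fell and 3 rose, 22.4% in all against 21.3% of all tested miRNAs. Their middle log2 fold change was -0.02. The calls leaned more to falls than in the whole tested set, where 11.4% were lower and 9.88% higher. The share called was 33.3% in the insulin and glucose list and 27.8% in the brown and beige fat list. It was 14.3% in the mitochondrial list and 12.5% in the lipid and cholesterol list. Whether these shares differ from that of the whole set was not tested.

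In the mitochondrial list, of 21 tested members 2 fell, 1 rose and 18 were not called (median log2 fold change -0.00). miR-146a-5p, a brake on inflammatory signalling, fell from 8131 ± 934 to 5870 ± 1287 CPM (SD, n = 6; edgeR adjusted p = 0.013, log2 fold change -0.47). miR-340-5p fell from 936 ± 62.4 to 769 ± 65.2 CPM (SD, n = 6; edgeR adjusted p = 0.0159, log2 fold change -0.28), a call lost in 6 of 23 alternatives. miR-93-5p, which is hosted in the replication gene Mcm7, rose from 1400 ± 76.1 to 1783 ± 153 CPM (SD, n = 6; edgeR adjusted p = 0.00324, log2 fold change 0.35). The most abundant uncalled members were miR-21a-5p (-0.01), which took either sign over the alternatives, and miR-16-5p (-0.13). Without water replicate 4 the list had 1 call in place of 3.

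The lipid and cholesterol list had 1 fall and 1 rise among 16 tested members (median 0.00). miR-370-3p, known to repress Cpt1a, the enzyme that commits fatty acids to entry into mitochondria, rose from 3.74 ± 1.75 to 15.9 ± 4.86 CPM (SD, n = 6; edgeR adjusted p = 0.000133, log2 fold change 2.06). miR-223-3p, abundant in myeloid cells, fell (-0.58, edgeR adjusted p = 0.00583). The abundant miR-122-5p (0.05) and miR-148a-3p (0.00) were not called, and their signs turned in 1 and 6 alternatives.

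Of the insulin and glucose list, 5 of 18 tested members fell, 1 rose and 12 were not called (median -0.04). Those that fell were miR-29a-3p (-0.21), miR-29b-3p (-0.32) and miR-29c-3p (-0.40), which repress collagens and insulin signalling genes, miR-802-5p (-0.65) and the islet miRNA miR-375-3p (-1.97). let-7b-5p rose (0.28). The count was 3 in place of 6 without water replicate 1, 4 or 6 or PZH replicate 2 or 5. The calls of miR-29a-3p, miR-29b-3p and let-7b-5p ended in 12, 13 and 13 of 23 alternatives, that of let-7b-5p also without water replicate 2 (0.27), and miR-375-3p stood at -1.27 without water replicate 2. The most abundant uncalled members were miR-143-3p (-0.02) and miR-26a-5p (-0.06), whose signs turned under some alternatives.

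In the brown and beige fat list, 4 of 18 tested members fell, 1 rose and 13 were not called (median -0.08). miR-203-3p (-0.41), miR-455-3p (-0.53), miR-455-5p (-0.48) and miR-193a-3p (-0.48) fell, and miR-93-5p (0.35) rose. Both arms of the miR-455 hairpin are among them, and miR-455 is known to promote brown fat identity. The most abundant uncalled members, miR-27b-3p (-0.01) and miR-27a-3p (0.01), took either sign over the alternatives.

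**Figure D5:**
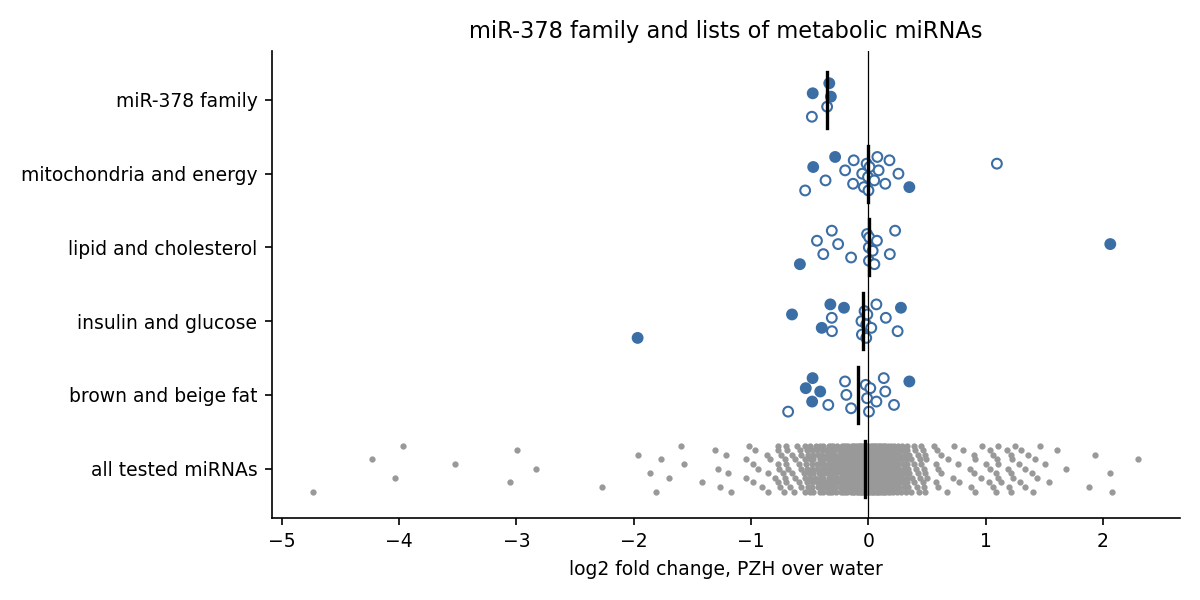
Log2 fold change of PZH over water (linear axis) for the 5 miR-378 members, the tested members of the 4 metabolic lists and all 607 tested miRNAs; filled circles were called and the black line is the median. The family's median is -0.35, and those of the 4 lists lie between -0.08 and 0.00.

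Markers of liver cell types were read beside the family, against the 11.4% of all tested miRNAs called as lower and the 9.88% called as higher. Like the metabolic lists, the marker lists were chosen with earlier results of these data known. Of 10 miRNAs listed as hepatocyte markers 5 fell and none rose (median -0.23). Of these, miR-193a-3p and miR-455-3p are also counted in the brown and beige fat list. Whether they come from hepatocytes in these livers was not tested. Besides miR-802-5p, miR-193a-3p and miR-455-3p, described above, these were miR-101b-3p (-0.26), a call lost in 5 of 23 alternatives, and miR-101a-3p (-0.30), lost in 12. Over the 10, the summed level was 236695 to 273105 CPM with water and 215415 to 279913 CPM with PZH. The other 5 were not called, among them the defining miR-122-5p (0.05), miR-192-5p (-0.20) and miR-148a-3p (0.00). miR-192-5p was called without PZH replicate 6 (-0.27, edgeR adjusted p = 0.0434). Muscle, where miR-378 is also abundant, had 3 tested markers and no call with edgeR, 0 at an unadjusted p under 0.05 and 0 with DESeq2. The sums were 15.7 to 91.8 CPM with water and 12.8 to 44.3 CPM with PZH. miR-1a-3p (-0.54) and miR-133a-3p (-0.68) were not called and were above 0 without water replicate 2 (0.17 and 0.05).

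Of 7 leukocyte markers, miR-223-3p fell and miR-342-3p (0.42) rose, with sums of 6603 to 8588 and 5989 to 8825 CPM. By mean level miR-342-3p was the most abundant of them, and miR-142a-5p, next to it, stood at -0.27 and was not called. Both endothelial arms fell, miR-126a-3p (-0.36, edgeR adjusted p = 0.00281) and miR-126a-5p (-0.33, edgeR adjusted p = 0.0445), the latter lost in 17 of 23 alternatives, with sums of 12857 to 17087 and 10268 to 13896 CPM. The mesenchymal list gave no call among 6 (median 0.10, sums 64735 to 94105 and 54095 to 94485 CPM), with miR-145a-5p at 0.19, and the erythroid list none among 4 (median -0.28, sums 3659 to 5756 and 3236 to 5500 CPM), with miR-144-3p at -0.26. Each of these lists had 1 member at an unadjusted p under 0.05 with edgeR and 0 calls with DESeq2. Of 5 biliary markers miR-200c-3p (-0.97, edgeR adjusted p = 0.0295) and miR-141-3p (-0.87, edgeR adjusted p = 0.0424) fell (median -0.20, sums 930 to 2191 and 863 to 1246 CPM), while miR-200a-3p (-0.20) and miR-200b-3p (-0.12) were not called. The calls of miR-200c-3p and miR-141-3p were lost in 7 and 14 of 23 alternatives, and limma-voom called 0 of the 5. With water replicate 2 left out, miR-200a-3p stood at -0.04 and miR-200b-3p at 0.18, miR-200c-3p stood at -0.53, still called, and miR-141-3p at -0.48, no longer called (edgeR adjusted p = 0.0831). No marker in the table was at 0 in all libraries. The part of any of these in the lower level of the miR-378 family was not tested.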

How the data were processed

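The authors deposited raw counts per mature miRNA for 12 libraries, with no normalization. The submitters' processing notes name cutadapt, FastQC, BWA, DESeq2 and GRCm38, without roles or order, and no source used here names the counter or its handling of shared reads. Depth sets the counting error, and reads carry no molecular identifiers.

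Counts were compared with edgeR 4.0.16 (quasi-likelihood, TMM scaling, default filter) in R 4.3.3, with SEs and 95% intervals derived from its test statistic. Arm ratios used limma 3.58.1 on log2 ratios with a pseudocount of 1, for hairpins with a mean of at least 20 counts in each arm. Exact permutation tests were two-sided over 924 assignments, and member correlations used 100000 permutations. Tested on simulated data, edgeR recovered 18.0% of changes of 1.25-fold and 69.4% of 1.5-fold among 622 simulated miRNAs.

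The members and lists were chosen with earlier results of these data known. Named miRNAs were the 5 members, the 6 most and 3 least like miR-378a-3p at 100 CPM or more, every called member and the 2 most abundant uncalled members of each metabolic list, and the 2 most abundant markers of each cell type. Alternatives were RLE, TMMwsp, upper quartile and total-count scaling, no filter, 10 CPM in 6 libraries, DESeq2 1.42.0, limma-voom without and with quality weights, robust edgeR, a replicate block and the omission of each library. The miRNAs miR-101a-3p, miR-101b-3p, miR-200c-3p, miR-141-3p, miR-92a-3p and miR-30c-5p were named after their values were seen. So was miR-335-3p, which is given from the fit of all 12 libraries alone. The labels give no batch or date. The count of members called and the likeness without water replicate 2 were chosen after seeing the data.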

Additional observations from a re-analysis of the deposited data

Results flagged for a closer look

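Among 108 sets of 6 libraries, a member, ratio or named miRNA in 1 group, 15 held a library far from the other 5 by Dixon's test, where chance gives about 1 in 20 for sets chosen without regard to their values. These sets were not: several miRNAs were named for a likeness to miR-378a-3p that turned on water replicate 2, and miR-200c-3p and miR-141-3p after their values were seen, so the number of such sets is not read against chance. Water replicate 2 was that library in 13 of the 15. It was high in miR-378b, at 3.02 CPM against 2.20 in the next water library, and in miR-378b per 1000 counts of miR-378a-3p, at 0.654 against 0.385. It was also high in miR-375-3p (26.6 CPM), miR-143-3p (80821 CPM), miR-1a-3p (71.6 CPM), miR-133a-3p (16.7 CPM), miR-200a-3p (996 CPM), miR-200b-3p (621 CPM), miR-200c-3p (189 CPM) and miR-141-3p (299 CPM). It was low in miR-126a-5p (3734 CPM), miR-22-3p (16670 CPM) and miR-335-5p (732 CPM).

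Of the other 2, PZH replicate 3 held 3.68 CPM of miR-378d against 2.80 in the next PZH library, and water replicate 4 had 24.4 counts of miR-378a-5p per 1000 of miR-378a-3p against 31.2 in the next water library.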

How the results depend on the processing

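The count of called miRNAs, 129, stayed between 94 and 144 over 23 alternatives, and all 5 members kept negative log2 fold changes in every fit that tested them. With upper quartile scaling and without a filter 1 member was called in place of 3, and with a library left out 2 to 3. For miR-378a-3p the log2 fold change was -0.26 with upper quartile scaling and -0.30 with no filter, both uncalled, and -0.39 to -0.28 with a library left out. Its smallest size, -0.24, came with 10 CPM in 6 libraries, where the call held (edgeR adjusted p = 0.0258). With RLE and total-count scaling the log2 fold change was -0.30 and -0.29, both called. For miR-378a-5p it was uncalled with RLE (-0.28), upper quartile (-0.24) and total-count scaling (-0.28), no filter (-0.28), 10 CPM in 6 libraries (-0.23), limma-voom (-0.30) and the replicate block (-0.31), and -0.37 to -0.28 with a library left out. The arm balance lay between -0.049 and 0.048 with a library left out. The mitochondrial list had 5 calls with 10 CPM in 6 libraries and with DESeq2, and 1 to 4 with a library left out. The insulin list had 3 with no filter, with 10 CPM in 6 libraries and with the replicate block, and 3 to 6 with a library left out. The lipid list had 1 with 10 CPM in 6 libraries, where miR-370-3p, miR-378b and miR-378d were not tested, and the brown fat list had 3 with no filter. The causes were not tested. With no filter the median log2 fold change of all miRNAs was -0.156, against -0.0286 with it.

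Signs turned for uncalled miRNAs near 0. Without water replicate 2 the log2 fold change was 0.014 for miR-21a-5p and 0.064 for miR-143-3p. It was -0.0052 for miR-148a-3p and -0.0023 for miR-27a-3p. For miR-21a-5p, miR-143-3p and miR-27b-3p the log2 fold changes became 0.021, 0.016 and 0.025 with RLE scaling, 0.063, 0.058 and 0.066 with upper quartile scaling, 0.027, 0.031 and 0.033 with total-count scaling, 0.015, 0.021 and 0.026 with no filter, 0.0696, 0.069 and 0.075 with 10 CPM in 6 libraries, and 0.021, 0.016 and 0.025 with DESeq2. With limma-voom and quality weights miR-143-3p stood at 0.034, miR-27b-3p at 0.012, miR-148a-3p at -0.00465 and miR-200b-3p at 0.056. miR-26a-5p stood at 0.018 with upper quartile scaling and 0.029 with 10 CPM in 6 libraries, and miR-27a-3p at -0.00886 with limma-voom and -0.014 with the replicate block. With a library left out the ranges were -0.0697 to 0.038 for miR-21a-5p, -0.0081 to 0.10 for miR-122-5p, -0.042 to 0.0496 for miR-148a-3p, -0.098 to 0.071 for miR-143-3p, -0.0395 to 0.034 for miR-27b-3p, -0.0604 to 0.077 for miR-27a-3p, -0.89 to 0.17 for miR-1a-3p, -1.04 to 0.046 for miR-133a-3p and -0.19 to 0.18 for miR-200b-3p.

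The groups share replicate numbers, which nothing in the labels ties to pairs of mice. After centring, same-numbered libraries correlated between -0.15 and 0.08, and 1 water and 0 PZH libraries correlated best with their own number. With the replicate block 114 miRNAs were called in place of 129.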
